A study of Mus musculus with 3 samples.

Results

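Translation factors are the proteins that load ribosomes onto messenger RNA, move them along it and release them. They were taken as the rows of the gene count table whose symbol begins with Eif1 to Eif6 or with Eef1 or Eef2, without the 4 Eif2ak kinase genes, and with at least 50 reads summed over the 3 libraries. This left 58 of the 20162 genes in the table. The libraries came from C2C12 cells, an established mouse myoblast line that forms myotubes when serum is lowered. In 2 populations a lentivirus expressed a short hairpin RNA (shRNA) against Tead4, a different hairpin in each (shRNA A and shRNA B), and in the other population it expressed a control shRNA. All 3 populations were lentivirally infected, kept in puromycin and differentiated for 7 days in horse serum, and each gave 1 library. The labels name no repeat culture of any hairpin. The p-values below therefore set each change against the spread between the 2 Tead4 shRNA libraries, which differ in hairpin. That spread was estimated with information shared across genes, and it may be technical.

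Initiation begins when eIF2, a complex of 3 subunits, brings the initiator methionyl-tRNA to the small ribosomal subunit together with eIF1, eIF1A, eIF3 and eIF5. The loaded subunit is drawn to the capped end of the messenger by the eIF4 factors and scans for a start codon, where eIF1 and eIF1A act as gatekeepers and eIF5 triggers hydrolysis of the GTP on eIF2. eIF2B then recharges eIF2, and phosphorylation of eIF2 by stress kinases blocks that step. Elongation is carried by eEF1A, which delivers aminoacyl-tRNA, and by eEF2, which moves the ribosome by a codon. In muscle these factors are known as points where growth signals and stress set the rate of protein synthesis.

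The libraries held 19918954 counted reads with shRNA A, 15594305 with shRNA B and 16412139 with the control shRNA. Tead4 had 19.7 and 10.8 CPM (counts per 1000000 reads, after TMM scaling of the library sizes) with shRNAs A and B, against 78.2 CPM with the control shRNA. Myotube markers were abundant: 8 of 8 were tested, and their summed level was 13204 CPM with shRNA A, 16265 CPM with shRNA B and 22569 CPM in the control library. Of these 8, 4 passed the test as lower. Markers of dividing cells summed to 246 and 253 CPM with shRNAs A and B, against 92.4 CPM in the control library, and 6 of 6 were higher. A list of fibroblast markers summed to 1269, 822 and 990 CPM in the same order, with 1 of 4 lower, and Thy1 of that list had no row. Of the markers of blood, endothelial, epithelial and fat cells, Pecam1 and Epcam had 0, 3 and 2 reads together. Ptprc (blood) and Adipoq (fat) had no row under those symbols and could not be measured. The part of these cell-type differences in the results that follow was not tested. In bulk RNA, fewer cells of a type and less RNA per cell cannot be told apart.

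With Tead4 shRNA the genes that changed were mainly those grouped by symbol under start selection and eIF2, and 1 inhibitor of cap binding. Most other initiation and elongation factors did not pass the test. By the edgeR quasi-likelihood test, 6 of the 58 genes fell and 2 rose. Over all 14478 genes tested, 9.82% passed, 4.48% as lower and 5.34% as higher. The share of translation factors that fell was thus 10.3% and the share that rose 3.45%. The median log2 fold change of the 58 genes was -0.15, beside 0.02 over all genes tested. It was -0.198 with shRNA A alone and -0.0471 with shRNA B alone. All 58 passed the filter on low counts, and 12 had an unadjusted p under 0.05, as had 21.7% of all genes tested.

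**Figure D1:**
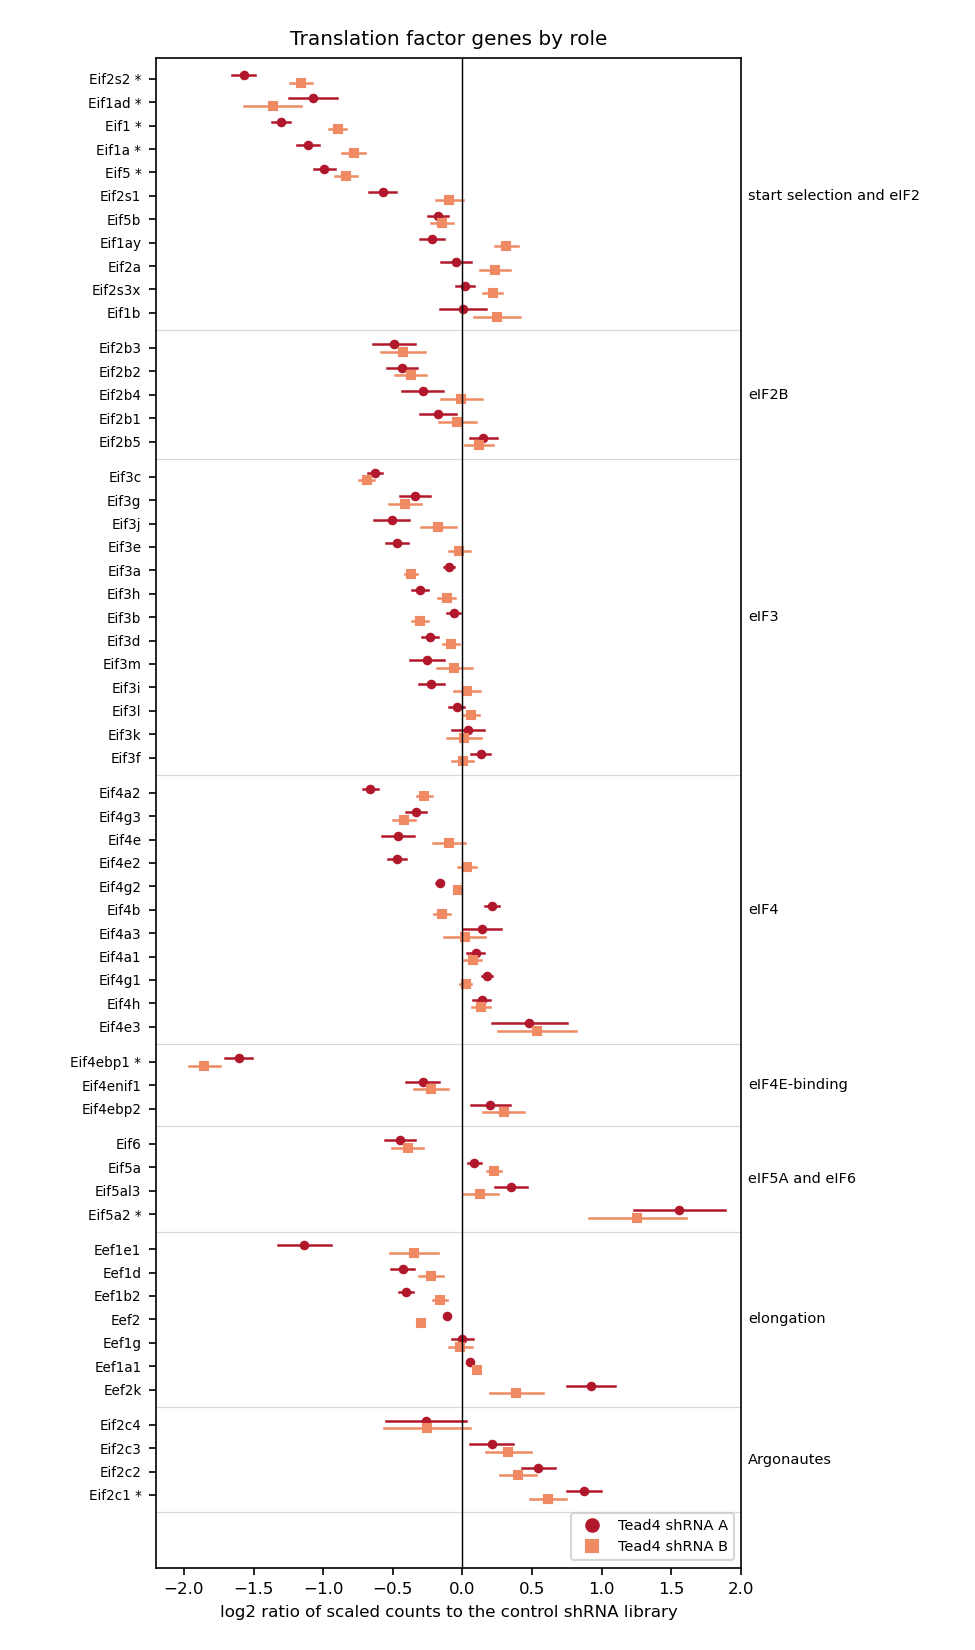
Log2 ratio of TMM-scaled counts of each Tead4 shRNA library to the control shRNA library for the 58 genes, grouped by role (circles, shRNA A; squares, shRNA B; bars, 95% exact counting intervals; asterisks, genes that passed the edgeR test). In the start selection group 5 of 11 genes lie well below 0 with both hairpins, while the 13 eIF3 genes lie between -0.69 and 0.13.

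The genes of start selection and eIF2 held the largest block of changes, with 5 of 11 lower and none higher. Among the 5 is Eif1ad, which was placed in this group by its symbol alone. The promoters of 4 of the 6 genes that fell are shown first, along with that of Eif5a2, the translation factor with the largest rise. Each run is the 150 bases that precede the RefSeq transcript start, 5′ to 3′, on build GRCm38.p6, and capitals mark a CACGTG match.
Eif1 (chr11:100319799-100319948, plus strand): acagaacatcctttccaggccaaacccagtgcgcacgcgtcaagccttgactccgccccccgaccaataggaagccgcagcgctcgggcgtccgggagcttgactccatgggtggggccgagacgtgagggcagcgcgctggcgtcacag
Eif1ad (chr19:5366663-5366812, plus strand): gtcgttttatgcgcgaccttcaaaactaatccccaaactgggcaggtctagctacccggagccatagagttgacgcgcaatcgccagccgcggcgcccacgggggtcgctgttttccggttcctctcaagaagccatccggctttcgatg
Eif2s2 (chr2:154892907-154893056, minus strand): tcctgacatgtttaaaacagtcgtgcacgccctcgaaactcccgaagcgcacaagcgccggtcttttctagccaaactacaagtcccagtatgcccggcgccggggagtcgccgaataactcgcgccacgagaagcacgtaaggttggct
Eif5 (chr12:111537951-111538100, plus strand): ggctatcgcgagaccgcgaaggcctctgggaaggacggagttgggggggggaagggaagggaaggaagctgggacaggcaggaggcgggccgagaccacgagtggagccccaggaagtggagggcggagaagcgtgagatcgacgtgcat
Eif5a2 (chr3:28781127-28781276, plus strand): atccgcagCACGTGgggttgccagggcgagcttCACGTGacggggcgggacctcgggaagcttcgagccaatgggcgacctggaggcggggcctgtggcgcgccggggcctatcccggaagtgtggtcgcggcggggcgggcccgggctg

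These 5 windows were rich in G and C, from 57.3% (Eif2s2) to 74.7% (Eif5a2), and held 12 (Eif5) to 19 (Eif5a2) CG pairs. Motifs were searched on both strands of the whole 300-base RefSeq windows: TGATGNAA (CARE, bound by ATF4), TGACGTCA (CRE), the ERSE of endoplasmic reticulum stress (CCAAT and CCACG a fixed distance apart), GGAATG (M-CAT, bound by TEAD factors) and CACGTG (E-box). The windows of Eif1, Eif1ad, Eif2s2 and Eif5 held none of them. That of Eif5a2 held a pair of E-boxes, which begin 142 and 117 bases before the start. RefSeq windows were found for 45 of the 58 genes, 60 windows in all, and Eif1a and Eif4ebp1, which also fell, were not among them. The E-box stood in 14 of these 60 windows (23.3%), against 7.15% of all 32851 windows, and M-CAT in 4 (6.67%), against 14.7% of all. CARE was in 2 (3.33%, against 3.97%), CRE in 1 (1.67%, against 1.79%) and ERSE in 0 (against 0.119%). The E-box windows belonged to 12 genes, of which Eif5a2 alone passed the test. No gene with any of the other motifs passed. In 0 of the 60 windows did matches of different motifs overlap. A match is a run of letters and not a shown binding site.

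Eif2s2, which codes for the beta subunit of eIF2, had 1757 and 1829 reads with shRNAs A and B, against 4165 reads with the control shRNA, or 87.3 and 116 CPM against 259 CPM. Both Tead4 shRNA libraries lay far below the control library. The level was 2.97-fold lower with shRNA A and 2.23-fold lower with shRNA B, with 95% exact counting intervals of -1.65 to -1.49 and -1.24 to -1.08 on the log2 scale. Eif2s2 fell by 1.35 on the log2 scale over both libraries (SE 0.23, edgeR quasi-likelihood adjusted p = 4.32e-04). The value is uncertain because of a near copy, Gm9892, whose transcript is 99.5% identical over 992 bases and which holds 8.15% of the 72-base words of Eif2s2. Gm9892 had 1854 and 1879 reads with shRNAs A and B and 4150 in the control library.

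The other subunits of eIF2 did not pass the test. Eif2s1, the alpha subunit that stress kinases phosphorylate, had 78.1 and 109 CPM with shRNAs A and B, against 116 CPM in the control library (log2 fold change -0.31, SE 0.23). Eif2s3x, the gamma subunit, had 214 and 245 CPM, against 211 CPM in the control library (log2 fold change 0.12, SE 0.23). Of the reads on these 3 subunits, Eif2s2 took 23.0% with shRNA A (95% exact interval 22.1 to 24.0). The share was 24.7% with shRNA B (interval 23.7 to 25.7), against 44.2% with the control shRNA (43.2 to 45.2). These intervals cover counting error only, and the difference between subunits was not tested.

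Eif1, the gatekeeper of start-codon choice, had 2918 and 3024 reads with shRNAs A and B, against 5735 with the control shRNA, or 145 and 192 CPM against 357 CPM. It was lower in both Tead4 shRNA libraries, 2.46-fold with A and 1.86-fold with B. The fall was 1.08 on the log2 scale (SE 0.24, edgeR quasi-likelihood adjusted p = 0.00389). Its close relative Eif1b had 34.1 and 40.3 CPM with shRNAs A and B, against 33.9 CPM in the control library, and was not called (log2 fold change 0.13, SE 0.24). Eif1 thus made up 81.0% of the reads of this pair in the shRNA A library (79.6 to 82.2) and 82.6% in the shRNA B library (81.4 to 83.9), against 91.3% in the control library (90.6 to 92.0). Eif1 shares 15.7% of its 72-base words with other annotated transcripts, and Gm10157, 98.2% identical over 343 bases, had 261, 316 and 489 reads with shRNA A, shRNA B and the control shRNA.

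Eif1a, which codes for the other gatekeeper eIF1A, had 98.9 and 124 CPM with shRNAs A and B, against 213 CPM in the control library. It was lower in both, and fell by 0.94 on the log2 scale (SE 0.23, edgeR quasi-likelihood adjusted p = 0.00895). The row named Eif1ay, which current annotation calls Eif1ax and which codes for nearly the same protein from chromosome X, went in opposite directions with the hairpins. It had 114 CPM (shRNA A) and 165 CPM (shRNA B), against 133 CPM in the control library, with log2 ratios of -0.22 (-0.31 to -0.14) and 0.31 (0.23 to 0.40). Eif1a took 46.5% of the reads of the pair in the shRNA A library (45.0 to 48.0) and 43.0% in the shRNA B library (41.5 to 44.4), against 61.7% in the control library (60.4 to 63.0).

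Eif5, the factor that triggers GTP hydrolysis on eIF2, had 2237 and 1954 reads with shRNAs A and B, against 3552 with the control shRNA, or 111 and 124 CPM against 221 CPM. Both Tead4 shRNA libraries were lower, by similar amounts. It fell by 0.91 on the log2 scale (SE 0.22, edgeR quasi-likelihood adjusted p = 0.00929). Eif1ad, whose product carries a domain related to eIF1A, had 437 and 280 reads with shRNAs A and B, against 733 with the control shRNA, or 21.7 and 17.8 CPM against 45.6 CPM. It fell by 1.21 on the log2 scale (SE 0.23, edgeR quasi-likelihood adjusted p = 0.00149). Part of its transcript (15.3% of exon bases) overlaps Banf1 on the opposite strand, and these reads carry no strand. Banf1 itself had log2 ratios of -0.04 and -0.03 with shRNAs A and B, and was not called.

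The remaining members of this group did not pass. Eif5b, which joins the ribosomal subunits, had log2 ratios of -0.17 and -0.15 with shRNAs A and B, and Eif2a, an alternative carrier of initiator tRNA, of -0.05 and 0.23. The 11 genes of the group together took 6.65% of all translation factor reads in the shRNA A library and 8.04% in the shRNA B library, against 9.81% in the control library.

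**Figure D2:**
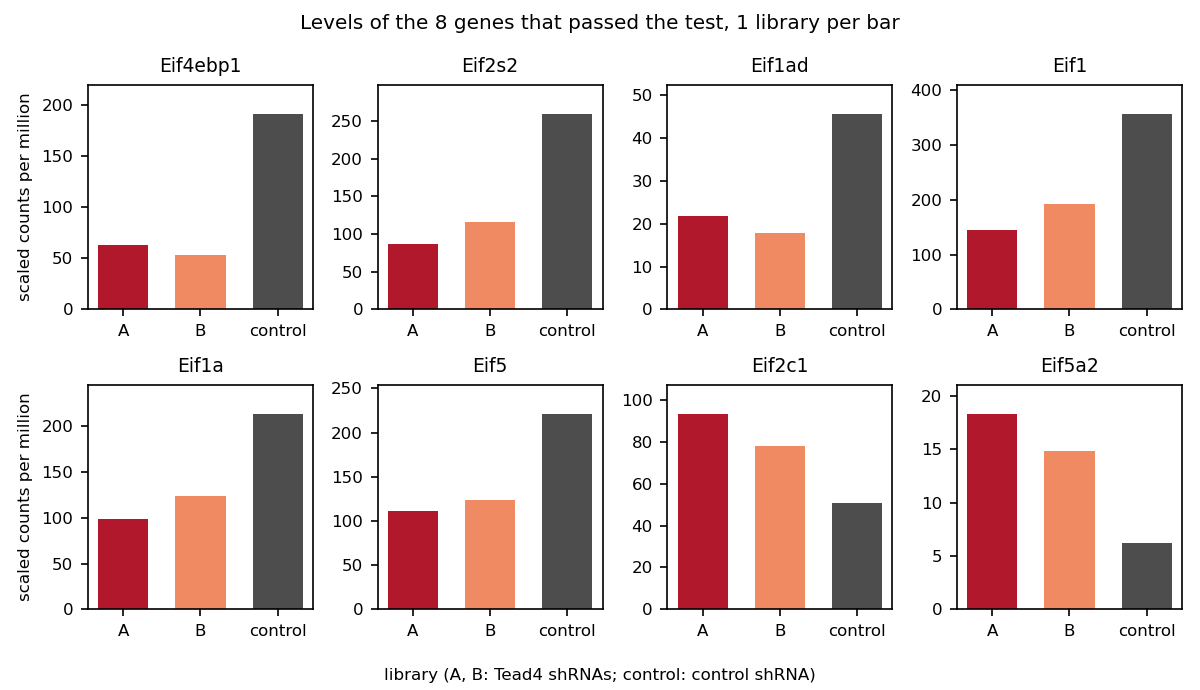
CPM of the 8 genes that passed the edgeR test, 1 bar per library (Tead4 shRNA A, Tead4 shRNA B, control shRNA; each panel has its own axis from 0). For the 6 genes that fell, both Tead4 shRNA bars stand below the control bar, and for Eif5a2 and Eif2c1 both stand above it.

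Eif4ebp1 is set beside the rest because it is known as a target of the stress factor ATF4. It codes for 4E-BP1, which binds the cap-binding protein eIF4E and blocks assembly of the cap complex until mTOR phosphorylates it. It had 1261 and 833 reads with shRNAs A and B, against 3066 with the control shRNA, or 62.7 and 52.9 CPM against 191 CPM. The level was 3.05-fold lower with shRNA A and 3.61-fold lower with shRNA B. The fall of 1.72 on the log2 scale (SE 0.22, edgeR quasi-likelihood adjusted p = 1.13e-05) had the smallest adjusted p among the 58 genes. Its relative Eif4ebp2 was not called, with 49.3 and 52.7 CPM with shRNAs A and B against 42.9 CPM in the control library (log2 fold change 0.25, SE 0.23). Eif4ebp1 made up 56.0% of the reads of the pair in the shRNA A library (53.89 to 58.03) and 50.1% in the shRNA B library (47.7 to 52.5), against 81.7% in the control library (80.4 to 82.9). Eif4enif1, which carries eIF4E into the nucleus, had log2 ratios of -0.28 and -0.23.

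ATF4 and its known targets, a list without Eif4ebp1, stood in the same libraries at a summed level of 525 CPM (shRNA A) and 582 CPM (shRNA B), against 2891 CPM in the control library. Of its 10 genes, 8 fell and none rose, and the median log2 fold change was -2.45. The most abundant that fell were Atf4 (-2.55, SE 0.23), the serine synthesis enzyme Psat1 (-1.29, SE 0.23), Ddit3, which codes for CHOP (-4.75, SE 0.23), and asparagine synthetase Asns (-2.46, SE 0.23). The list is known to have fallen in these samples and is no independent evidence of a direction. Its part in the levels of Eif4ebp1 and of the start selection genes was not tested.

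None of the 11 genes of the eIF4 group passed the test, and their median log2 fold change was 0.04. Eif4e, the cap-binding protein, had 59.1 and 76.2 CPM with shRNAs A and B, against 81.5 CPM in the control library (log2 fold change -0.27, SE 0.22). Its relative Eif4e2, a repressive cap binder, had log2 ratios of -0.47 (-0.53 to -0.40) with shRNA A and 0.03 (-0.03 to 0.09) with shRNA B. Eif4e3 had a log2 fold change of 0.51 (SE 0.28). The identifier given for Eif4e3 belongs to Gm20696 in GENCODE M21, a gene that shares exons with Eif4e3 and Foxp1, so that value is uncertain. Eif4e took 23.5% of the reads of the 3 genes in the shRNA A library and 22.2% in the shRNA B library, against 24.1% in the control library, and the counting interval of each Tead4 shRNA library overlapped that of the control library.

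Among the RNA helicases of the cap complex, Eif4a2 had 242 and 317 CPM with shRNAs A and B, against 383 CPM in the control library (log2 fold change -0.45, SE 0.24). Eif4a1 had 257 and 253 CPM, against 240 CPM in the control library (log2 fold change 0.08, SE 0.23). Neither passed the test, and Eif4a2 took 48.6% of their reads in the shRNA A library (47.6 to 49.5) and 55.6% in the shRNA B library (54.6 to 56.7), against 61.4% in the control library (60.5 to 62.4). Eif4a3, a helicase of the exon junction complex, had log2 ratios of 0.14 and 0.02. Of the scaffolds, Eif4g1 had log2 ratios of 0.17 and 0.02, Eif4g2 (DAP5, which acts without the cap) of -0.16 and -0.03, and Eif4g3 of -0.33 and -0.42. Eif4b, a helicase cofactor, had 364 CPM (shRNA A) and 284 CPM (shRNA B), against 315 CPM in the control library. Its counting intervals lay on opposite sides of no change (0.16 to 0.26 with A, -0.20 to -0.09 with B). Eif4h, a related cofactor, had log2 ratios of 0.14 and 0.13.

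**Figure D3:**
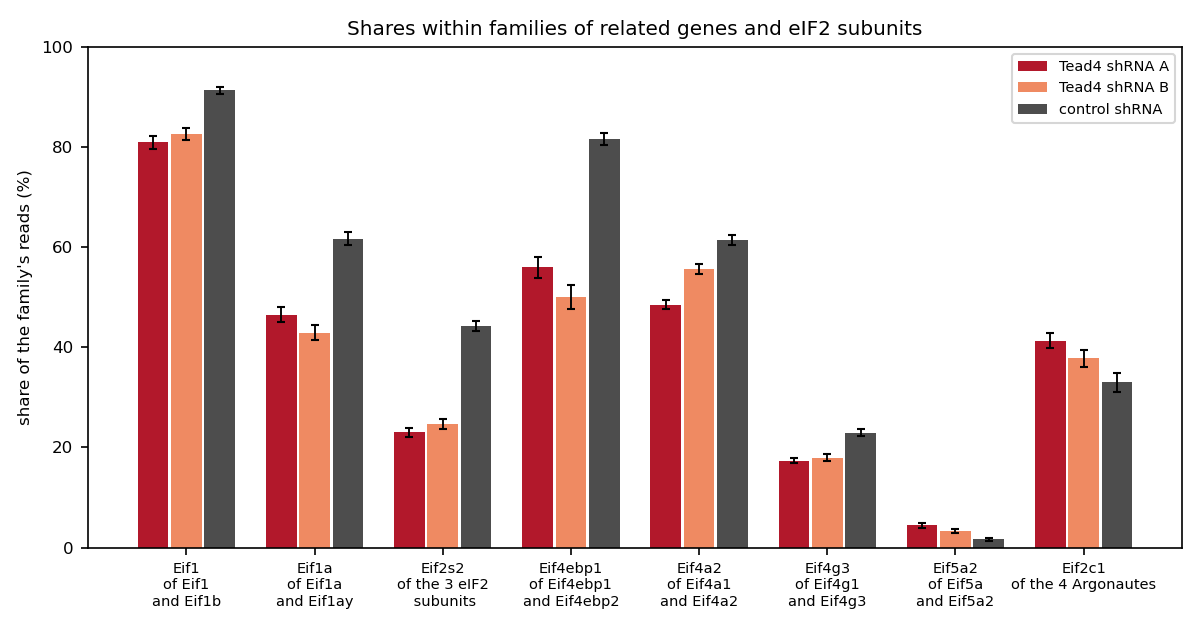
Share of reads that 1 gene takes within its family or complex, in percent, by library (Tead4 shRNA A, Tead4 shRNA B, control shRNA; bars show 95% exact counting intervals; reads are not corrected for transcript length). The shares of Eif1, Eif1a, Eif2s2 and Eif4ebp1 are lower in both Tead4 shRNA libraries than in the control library, with intervals that do not overlap that of the control. The same holds for Eif4a2 and Eif4g3, which did not pass the edgeR test. The shares of Eif5a2 and Eif2c1 are higher in both, also without overlap.

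Subunits of eIF3, the large scaffold that holds the initiation complex together, did not pass in any of 13 cases. Their median log2 fold change was -0.18, and the 13 values ran from -0.66 to 0.07. Eif3c stood lowest, with 289 and 278 CPM with shRNAs A and B, against 447 CPM in the control library (SE 0.23, edgeR quasi-likelihood adjusted p = 0.0768). It was 1.55-fold and 1.61-fold lower, the only eIF3 gene past 1.5-fold with both hairpins. The other 12 subunits had log2 fold changes of -0.37 (Eif3g) to 0.07 (Eif3f), with a median of -0.17. Eif3e and Eif3j differed most between the hairpins within the complex, with log2 ratios of -0.47 and -0.02 for Eif3e and of -0.51 and -0.17 for Eif3j. The subunits together took 15.9% of translation factor reads in the shRNA A library and 15.7% in the shRNA B library, against 16.7% in the control library.

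The 5 subunits of eIF2B, the exchange factor that recharges eIF2, did not pass either, with a median log2 fold change of -0.14. Eif2b3 and Eif2b2 had the lowest values. Eif2b3 had 33.2 and 34.7 CPM with shRNAs A and B, against 46.6 CPM in the control library (log2 fold change -0.46, SE 0.23), and Eif2b2 had 66.9 and 69.9 CPM, against 90.4 CPM (-0.40, SE 0.21). The catalytic subunit Eif2b5 was on the other side of 0, with log2 ratios of 0.15 and 0.12.

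Eif5a2 rose. It codes for the minor form of eIF5A, a factor that carries the modified lysine hypusine and helps ribosomes past stalling sequences. It had 368 and 234 reads with shRNAs A and B, against 100 reads with the control shRNA, or 18.3 and 14.9 CPM against 6.23 CPM. Both Tead4 shRNA libraries were higher, 2.94-fold with A (95% exact interval 1.23 to 1.89 on the log2 scale) and 2.38-fold with B (0.91 to 1.61). Over both libraries Eif5a2 rose by 1.41 on the log2 scale (SE 0.31, adjusted p = 0.00426 by edgeR's quasi-likelihood test). The main form Eif5a was not called, at 393 and 432 CPM with shRNAs A and B, against 370.2 CPM in the control library. Eif5a2 remained the minor form, with 4.45% of the reads of the pair in the shRNA A library (4.01 to 4.91) and 3.32% in the shRNA B library (2.91 to 3.77), against 1.65% in the control library (1.35 to 2.01). The row Eif5al3, annotated as a processed pseudogene and 97.2% identical to Eif5a over 434 bases, had log2 ratios of 0.35 and 0.13. Eif6, which keeps the large ribosomal subunit apart until it is mature, had -0.45 and -0.39.

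None of the 7 genes grouped by symbol under elongation, Eef2k and Eef1e1 among them, passed the test. Eef1a1 had 3960 and 4114 CPM with shRNAs A and B, against 3817 CPM in the control library (log2 fold change 0.08, SE 0.24), and Eef2 had 3665 and 3223 CPM, against 3953 CPM (-0.20, SE 0.24). Together these genes took 44.8% of all translation factor reads in the shRNA A library and 42.7% in the shRNA B library, against 41.4% in the control library. The exchange subunits Eef1b2, Eef1d and Eef1g, which recharge eEF1A, had log2 fold changes of -0.28, -0.33 and -0.01. Eef2k, the kinase that phosphorylates and slows eEF2, had 47.3 and 32.7 CPM with shRNAs A and B, against 25.0 CPM in the control library (log2 fold change 0.68, SE 0.26, edgeR quasi-likelihood adjusted p = 0.110).

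Eef1e1, also called AIMP3, a scaffold protein of the aminoacyl-tRNA synthetase complex, was the 1 gene of 58 that differed at least 1.5-fold between the hairpins with an exact counting interval that excludes no change. Of all genes tested, 11.3% did so. None of the 58 differed 2-fold between the hairpins, as 4.41% of all genes tested did. It had 17.9 CPM (shRNA A) and 30.8 CPM (shRNA B), against 39.3 CPM in the control library, a log2 ratio of B to A of 0.79 (0.59 to 0.99). Over both libraries it did not pass (log2 fold change -0.69, SE 0.27, edgeR quasi-likelihood adjusted p = 0.117). Levels with shRNA B lay above those with shRNA A for 36 of the 58 genes, and the median log2 ratio of B to A was 0.06, beside -0.00027 over all genes tested. These comparisons rest on 1 library a side and have no replicate check.

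The rule also took in Eif2c1 to Eif2c4, older symbols of the Argonaute genes Ago1 to Ago4, whose proteins bind small RNAs and are not translation factors in the strict sense. Eif2c1 had 93.3 and 77.9 CPM with shRNAs A and B, against 50.9 CPM in the control library. It was higher in both and rose by 0.75 on the log2 scale (SE 0.23, edgeR quasi-likelihood adjusted p = 0.0406). That call ended with another scaling (RLE, adjusted p = 0.0611) and with DESeq2 (adjusted p = 0.102), in a range of 0.0208 to 0.102 over 7 alternatives. Eif2c2, the slicing Argonaute, had log2 ratios of 0.54 and 0.40, Eif2c3 of 0.21 and 0.33, and Eif2c4 of -0.26 and -0.26, none of them called. Eif2c1 took 41.4% of Argonaute reads in the shRNA A library (39.9 to 42.8) and 37.8% in the shRNA B library (36.1 to 39.5), against 33.0% in the control library (31.2 to 34.9).

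By size alone, 7 of the 58 genes were at least 1.5-fold lower and 2 at least 1.5-fold higher with both hairpins, with exact intervals that exclude no change. Over all genes tested the shares were 7.03% lower and 8.99% higher. The 7 were Eif3c and the 6 genes that fell by the edgeR test. Both ratios share the control library. With shRNA A alone, 9 genes were 1.5-fold lower and 3 higher (12.8% and 16.0% of all genes tested), and with shRNA B alone 7 were lower and 2 higher (10.0% and 12.1%). At 2-fold with both hairpins, 3 genes were lower and 1 higher, where 3.10% and 4.63% of all genes tested were. Of the 58 genes, 33 lay below the control level with both hairpins, 19 above it with both, and 6 on opposite sides. Among the 14478 genes tested, these counts were 5472, 5754 and 3228. Leaving out the 4 Argonaute rows, Eif4ebp1 and the pseudogene row gave 52 genes, of which 5 fell and 1 rose.

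Levels per transcript length, in CPM per kilobase averaged over the 3 libraries, ran from 1.67 (Eif2c4) to 2209 (Eef1a1). Eef2 followed with 1170 CPM per kilobase, then Eif5a with 277 and Eif3h with 204. The genes that fell stood at 11.1 (Eif1ad) to 175 (Eif1) CPM per kilobase. Eif5a2 stood near the low end, at 2.61. The genes with the fewest reads were Eif2c4, Eif5a2 and Eif4e3, with 565, 702 and 754 reads over the 3 libraries, all far above the minimum of 50. Just below the minimum was Eef1a2, known as the elongation factor form of adult muscle, with 13 and 23 reads with shRNAs A and B and 11 with the control shRNA, followed by Eif4e1b with 0 reads.

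**Figure D4:**
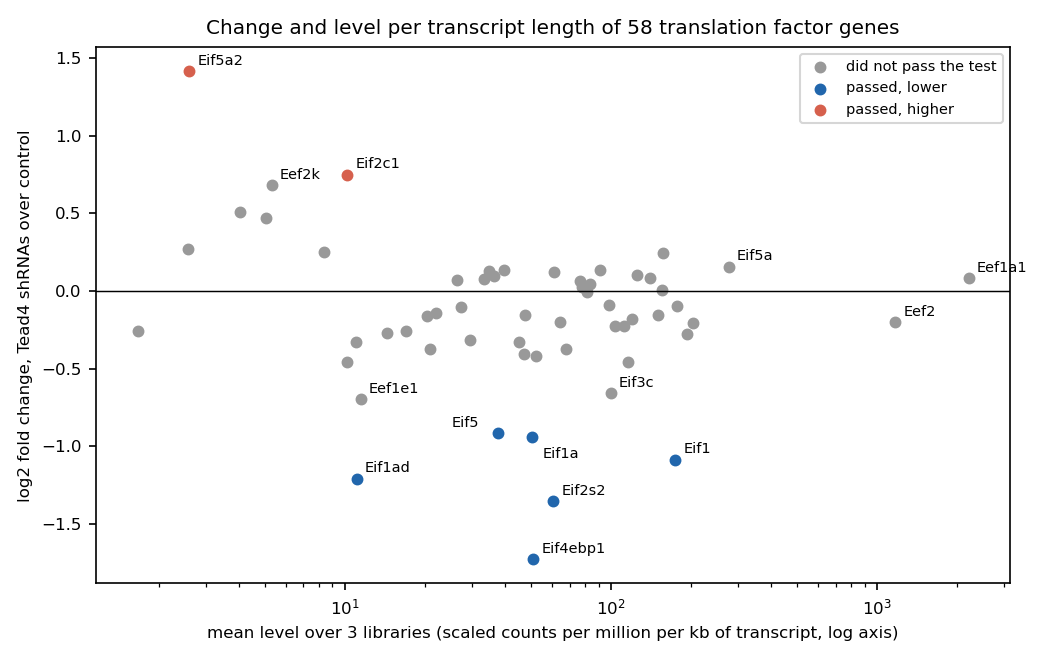
Log2 fold change of both Tead4 shRNA libraries over the control library against the mean level per kilobase of transcript (log axis) for the 58 genes. Genes that passed the edgeR test as lower (blue) lie between 11.1 and 175 CPM per kilobase, and the most abundant genes, Eef1a1 and Eef2, lie near 0.

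Around these factors, the lists of release, mitochondrial and hypusine genes held no gene that passed the test. Of 8 tested release and recycling genes, none passed (median log2 fold change -0.02), among them the recycling factor Abce1 (0.06, SE 0.24) and the release factor Etf1 (-0.48, SE 0.23). Of 8 mitochondrial translation factors, none passed (median 0.09), among them the elongation factor Gfm1 (0.28, SE 0.22) and Gfm2 (-0.07, SE 0.22). None of 6 hypusine and diphthamide enzymes passed (median -0.13), with Dhps and Dohh, which make the hypusine of eIF5A, at 0.32 (SE 0.22) and 0.01 (SE 0.22).

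Among 18 regulators of cap and poly(A) binding, 3 fell and none rose (median -0.29). The 3 were the mTOR inhibitors Sesn2 (-2.44, SE 0.23; also in the ATF4 list) and Ddit4 (-1.16, SE 0.23), and Mknk1, a kinase of eIF4E (-1.08, SE 0.23). Of 8 eIF2 kinases and phosphatase subunits, 2 fell and 1 rose (median -0.14). Ppp1r15a (GADD34), which directs a phosphatase to eIF2, fell by 2.62 (SE 0.21), and Dnajc3, an inhibitor of eIF2 kinases, fell by 1.73 (SE 0.22). Eif2ak2 (PKR), the kinase activated by double-stranded RNA, rose by 0.84 (SE 0.25), a call that ended with DESeq2 (adjusted p = 0.135, in a range of 0.0181 to 0.135 over 7 alternatives).

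The calls rest on the spread between the 2 Tead4 shRNA libraries. When edgeR took the dispersion from all 3 libraries pooled, its likelihood-ratio test called 0 of the 58 genes and 0 of all genes tested (0%). At an unadjusted p under 0.05 it gave 3 of the 58 genes and 540 of the 14478 genes tested. The 6 genes that fell did so under each of 7 other settings, which called as lower 3.88% of all genes tested with RLE scaling, 3.56% with upper-quartile scaling, 4.14% with total counts, 4.09% without the filter, 2.65% with DESeq2, 4.69% with limma-voom and 4.72% with the newer quasi-likelihood method. In the same order, these settings called 4.32%, 5.15%, 6.29%, 5.36%, 3.20%, 4.76% and 5.50% as higher. An exact permutation test of 2 libraries against 1 cannot go below p = 0.333.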

How the data were processed

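Polyadenylated RNA of 3 cell populations was sequenced as single-end reads of 72 bases, without marking strand, per the labels. The deposited table gave raw read counts per Ensembl gene. Its deposited normalized values, a score that differed by at most 4.04 from the counts times 1 factor per library, were not tested. Build mm9 and the tools Cufflinks 0.8.2, TopHat 1.0.12 and DESeq are listed in the submitters' processing notes. Not given in the sources used here are the counting program and its handling of multiply mapped reads.

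The tests on counts used edgeR 4.0.16 under R 4.3.3 (filterByExpr, TMM scaling, legacy quasi-likelihood F test, Benjamini-Hochberg adjustment over 14478 genes, threshold 0.05), with 1 residual degree of freedom. With 1 control library, its variation was taken to equal that of the 2 Tead4 shRNA libraries. SE is the absolute log2 fold change over the square root of F. Ratios and shares carry 95% exact (Clopper-Pearson) intervals, which cover counting error only. These intervals take reads as independent, and PCR copies are not independent molecules. DESeq2 1.42.0, limma 3.58.1 (voom) and other scalings were alternatives. The fits were also run on counts simulated with equal changes for both hairpins and equal variation in all libraries. That run could not test differences between hairpins or the variation taken for the control library. Transcript lengths and overlaps came from GENCODE M21 (GRCm38), to which 58 of 58 members matched by identifier. Promoters came from RefSeq (GRCm38.p6). All members, the called ones, changes of 1.5-fold, close relatives and called genes of fixed lists were to be named. The members, lists and this rule were chosen with earlier results of these data known.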

Additional observations from a re-analysis of the deposited data

How the results depend on the processing

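The 6 genes that fell and Eif5a2 passed under each of the 7 alternatives other than the likelihood-ratio test with the dispersion over all 3 libraries (RLE, upper-quartile and total-count scaling, no filter, DESeq2, limma-voom, newer quasi-likelihood method). That test called 0 lower and 0 higher. RLE scaling and DESeq2 each called 1 higher in place of 2, through the loss of Eif2c1. With a 2-fold threshold, 3 genes were lower and 1 higher with both shRNAs, and 0 differed between the shRNAs. With 1 shRNA library left out, which gives values with no test, the median log2 fold change ran from -0.198 (without shRNA B) to -0.0471 (without shRNA A), the count of genes 1.5-fold lower from 7 to 9 and of those 1.5-fold higher from 2 to 3. With both shRNA libraries kept, of 224 values over the 28 named genes, 11 lost their call and 0 changed direction. Only Tead4 and the members that passed the main test had a call to lose. Each of them lost it with that likelihood-ratio test, and Eif2c1 also with RLE scaling and DESeq2. The cause of these changes was not tested. No paired analysis was possible because there is 1 control library. Depth limits Eif5a2 most, with 100 reads in the control library.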

Other observations

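Several translation factor genes have near copies with rows of their own in the table. Eif2s3x had 4300, 3862 and 3388 reads with shRNA A, shRNA B and the control shRNA, and Gm2223, identical to it over 1350 bases, had 3383, 2632 and 2457. Eif3j had 978, 966 and 1109 reads, and Eif3j2, 99.4% identical over 2379 bases, had 776, 769 and 1001. Eif3m had 1105, 992 and 1052 reads, and Gm7658, 98.5% identical over 1125 bases, had 1956, 1598 and 1488. Eef1a1 had 79656, 64826 and 61284 reads, and Gm13456, 96.8% identical over 1390 bases, had 23587, 21495 and 19695. In all, 13 of the 58 genes shared at least 10% of their 72-base words with other annotated transcripts, and 13 overlapped an exon of a gene on the opposite strand. Whether reads were counted at more than 1 row is not given in the sources used here.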
